A study of Equus caballus with 14 samples.

Results

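Interleukin-1 transcripts were examined in the mediastinal lymph nodes, which drain the lung, of horses with recurrent airway obstruction (RAO, also called heaves). The genes were IL1A, IL1B, IL1RN, IL1R1 and IL1R2, taken as every array probe that carries the horse RefSeq transcript accession of the gene. All 5 genes had a probe, and together they were represented by 19 of the 43603 probes on the array: 10 for IL1RN, 4 for IL1B, 3 for IL1A and 1 each for IL1R1 and IL1R2. They are 5 of the 599 genes for which a probe could be named. Of the 19 probes, 18 were tested, those whose signal was well above background in 4 or more of the 14 horses. The brightest tested probe of a gene, by mean signal over all horses, was used where 1 value per horse was needed.

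Lymph node RNA came from 7 RAO-affected horses and 7 healthy control horses of mixed breed, each on an array of its own. Every horse had been moved from pasture to a stable and fed dusty hay before sampling, which provokes airway obstruction in susceptible horses and leaves the controls clinically healthy. The samples held lymph node cortex and medulla with all their cells, and in such bulk RNA fewer cells of a type and less RNA per cell cannot be told apart. The RAO-affected horses were on average older than the controls, and an effect of age cannot be told apart from that of disease.

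Interleukin-1 is an alarm cytokine of innate immunity. Its forms IL-1α (IL1A) and IL-1β (IL1B) bind the signalling receptor IL1R1, which activates NF-κB and the transcription of chemokines, proteases and prostaglandin enzymes. The response is held back by the receptor antagonist (IL1RN), which occupies IL1R1 without signalling, and by the decoy receptor (IL1R2), which captures the ligand and lacks a signalling domain. Macrophages, monocytes and neutrophils are well known producers of IL-1β, of the antagonist and of the decoy receptor.

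The arrays lay on 4 slides, each with horses of both groups. Slide 1 carried RAO-affected horse 4 with control horses 3 and 5. It was scanned 16 days later than the rest, and its arrays correlated at 0.982 to 0.989 with each other and at 0.898 to 0.946 with the other arrays, which correlated at 0.947 to 0.988 among themselves. Between 32696 and 39947 probes per array were well above background. Over all 38674 probes tested with limma, 569 (1.47%) differed at least 2-fold between the groups at an unadjusted p below 0.05, and none passed Benjamini-Hochberg adjustment (lowest adjusted p 0.873), with 2177 at an unadjusted p below 0.05. The methods' t-test, run unpaired, also left 0 probes after adjustment. Values below are quantile-normalized log2 signals, and a difference of 1 is a 2-fold difference. Because probes respond differently, signals are compared between horses and not between probes.

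The ligands IL1B and IL1A, the antagonist IL1RN and the decoy receptor IL1R2 had higher mean signals in the RAO-affected horses, and IL1R1 had a lower one. Of the 18 tested probes, 17 had a positive difference, where 43.8% of all tested probes did, but the probes of a gene share its RNA and are not independent. Only the IL1R2 probe was among the 1.47% of probes past 2-fold and an unadjusted p below 0.05. No interleukin-1 probe passed adjustment in limma (lowest adjusted p 0.876).

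**Figure D1:**
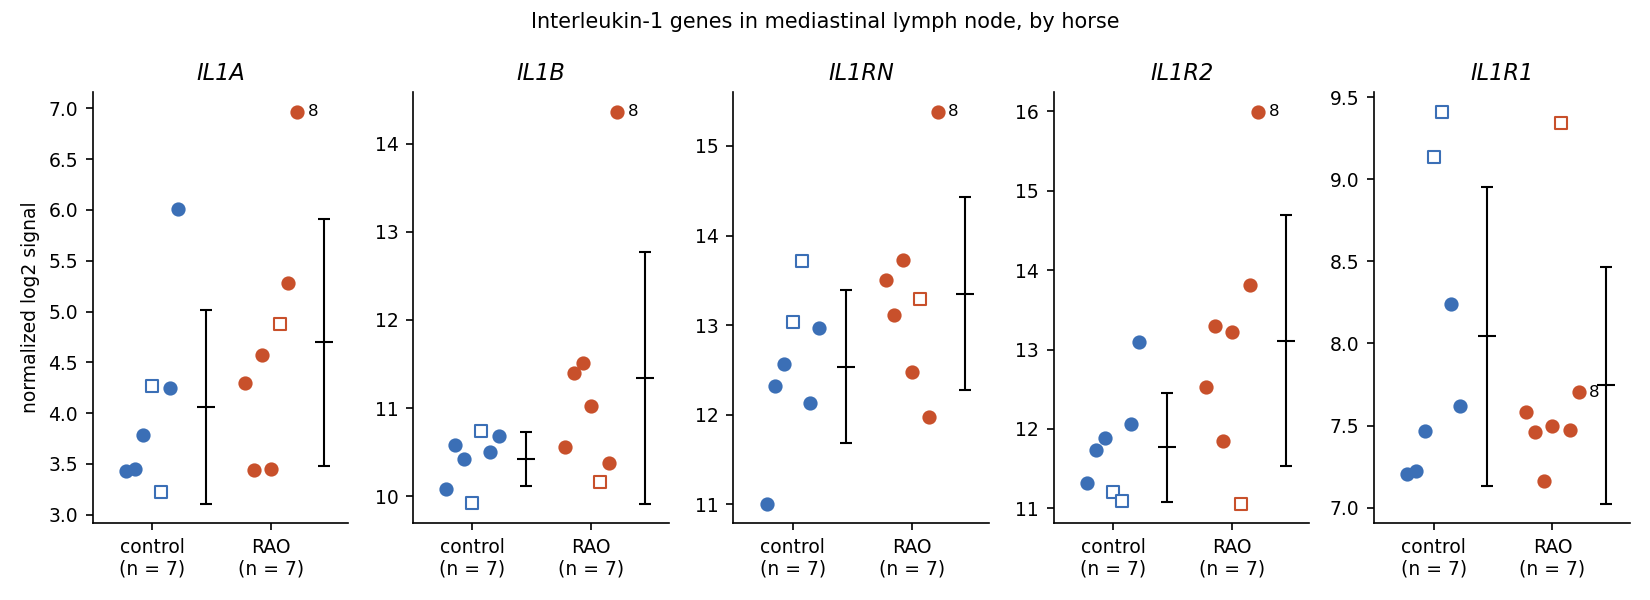
Normalized log2 signal (vertical axis, a separate range for each gene) of the brightest probe of IL1A, IL1B, IL1RN, IL1R2 and IL1R1 in 7 control and 7 RAO-affected horses. Points are horses, open squares are the 3 horses of slide 1, 8 marks RAO-affected horse 8, and the bar at the right of each group is mean ± SD. Horse 8 is the highest point for every gene except IL1R1, where the 3 horses of slide 1 lie above all others.

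IL1B, which encodes the secreted ligand IL-1β, was read by probes A_69_P000091, A_69_P000092, A_69_P006391 and A_69_P006392. In its brightest probe, A_69_P000092, the control horses ranged from 9.92 to 10.74 with a median of 10.50, and the RAO-affected horses from 10.16 to 14.37 with a median of 11.03. The control horses lay within a narrow span, 4 RAO-affected horses (2, 8, 12 and 14) were above every control, and the other 3 fell among the controls. The group means were 11.34 ± 1.43 in RAO-affected and 10.42 ± 0.31 in control horses (SD, n = 7 each). The limma difference was 0.92 ± 0.52 (SE), with an adjusted p of 0.901. An exact two-sided permutation test of this probe gave p = 0.059, and permuting within slides gave p = 0.219. On A_69_P000091, A_69_P006391 and A_69_P006392 the exact permutation p was 0.0495, 0.111 and 0.0396, and within slides it was 0.179, 0.247 and 0.127.

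The other IL1B probes gave similar differences. Their differences were 0.97 for A_69_P000091, 0.90 for A_69_P006391 and 1.06 for A_69_P006392, and across the 14 horses every pair of IL1B probes correlated at 0.960 or more. Horse 8 was the highest horse on all 4 probes. Without it the 4 differences were 0.39 to 0.57, and with slide as a fixed block they were 0.73 to 0.93. In the horse gene table, a second locus next to the one that carries the array's accession is also listed as IL1B. Whether the probes separate the copies was not tested.

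IL1A, which encodes the other agonist, IL-1α, was close to the array's background. Its probes A_69_P000081, A_69_P000082 and A_69_P000083 were well above background on 3, 4 and 4 of the 14 arrays, and the first was not tested for that reason. On A_69_P000082 those arrays were of 3 RAO-affected horses and 1 control horse, so it reached the filter mainly through the RAO-affected group. On A_69_P000083 the control horses ranged from 3.23 to 6.01 with a median of 3.79, and the RAO-affected horses from 3.44 to 6.97 with a median of 4.57. Only control horses 3 and 9 and RAO-affected horses 4 and 8 were well above background there, 2 in each group, and the groups overlapped over most of their range. Horse 8 had the highest signal on all 3 IL1A probes, at 6.26, 7.39 and 6.97. The limma differences were 0.64 ± 0.55 (SE) for A_69_P000083 and 0.78 ± 0.56 for A_69_P000082, with a lowest adjusted p of 0.923. Without horse 8 they were 0.26 and 0.34, so that a difference in IL1A was not detectable at this signal.

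**Figure D2:**
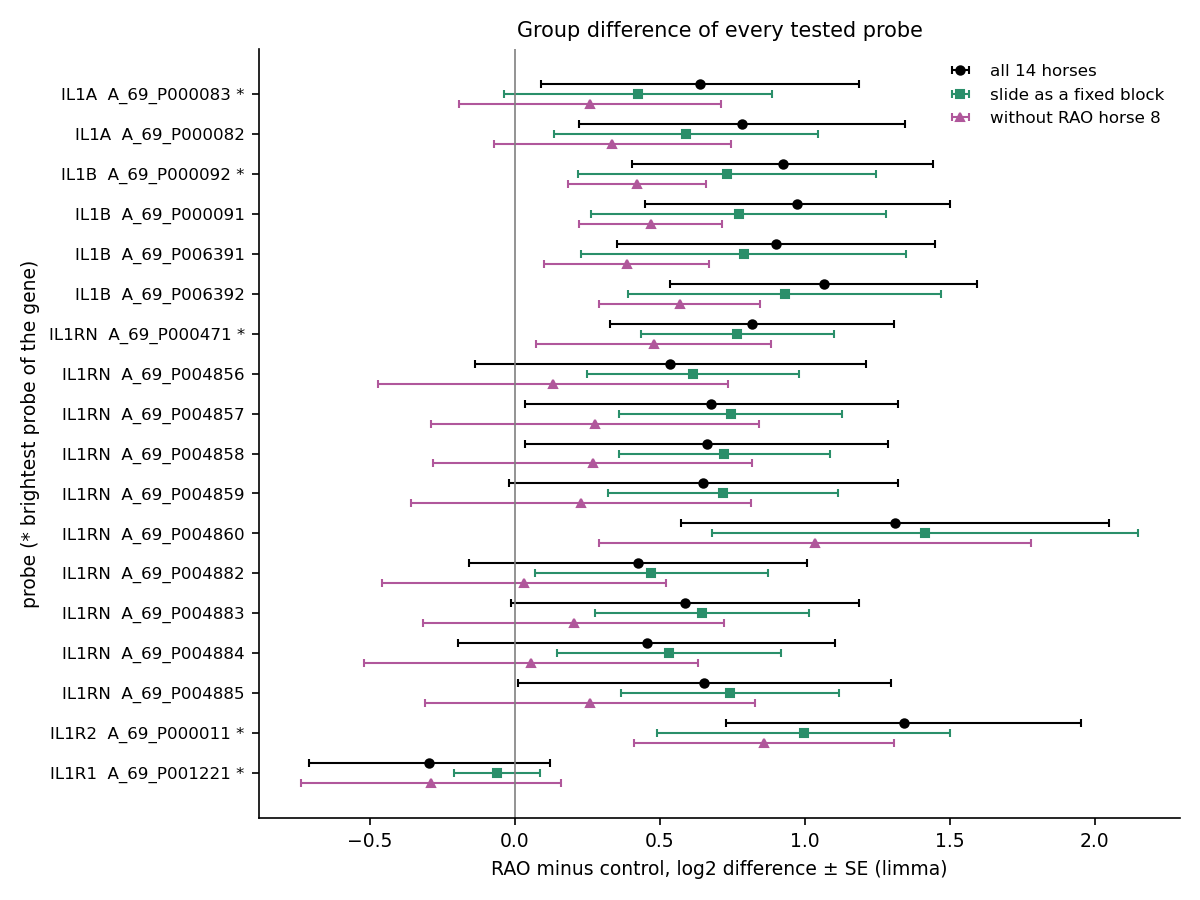
Difference between RAO-affected and control horses in log2 signal (horizontal axis, mean ± SE from limma) for each of the 18 tested probes (vertical axis, an asterisk marks the brightest of a gene). Circles are the fit of all 14 horses, squares the fit with slide as a fixed block and triangles the fit without RAO-affected horse 8. All probes except that of IL1R1 lie right of 0 in the 3 fits, and leaving out horse 8 moved every IL1A, IL1B, IL1RN and IL1R2 probe towards 0.

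IL1RN, the receptor antagonist, was read by 1 bright probe, A_69_P000471, and by 9 weaker ones. On the bright probe the control horses ranged from 11.01 to 13.72 with a median of 12.56, and the RAO-affected horses from 11.98 to 15.38 with a median of 13.29. The groups overlapped, with only RAO-affected horses 8 and 14 above every control. The group means were 13.35 ± 1.08 in RAO-affected and 12.54 ± 0.85 in control horses (SD, n = 7 each). The limma difference was 0.82 ± 0.49 (SE), with an unadjusted p of 0.118 and an adjusted p of 0.904. The exact permutation test of this probe gave p = 0.146, and 0.065 within slides.

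With slide as a fixed block, the IL1RN difference was 0.77 ± 0.33 and its unadjusted limma p was 0.042, with an adjusted p of 0.407. It was the only one of the 18 probes below 0.05 in that fit, in which 11.9% of all tested probes were, so this is no more than the share found among probes in general. RAO-affected horses were higher within slides 2, 3 and 4, by 0.65, 1.47 and 0.98, and the difference was -0.082 within slide 1, which held 1 of them. Leaving out horse 8 gave 0.48 without the block and 0.58 with it (unadjusted limma p 0.036). Leaving out RAO-affected horse 6, the lowest of its group, gave 1.05 (unadjusted limma p 0.048).

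Among the 9 weaker IL1RN probes, 8 separated slide 1 from the rest more than they separated the groups. On these 8 the horses of slide 1 averaged 1.31 to 1.68 above the other horses in signal, against 0.51 on the bright probe. Those 8 correlated with each other at 0.968 or more across horses, and with the bright probe at 0.878 to 0.916. Their group differences were 0.42 to 0.68, and 0.031 to 0.28 without horse 8. The ninth, A_69_P004860, had the largest IL1RN difference, 1.31 ± 0.74 (SE), and its lowest value with 1 horse left out was 0.86, without RAO-affected horse 6. In RAO-affected horse 6 it read 10.77, while the other 8 weaker probes read 5.70 to 6.61 in that horse. In the other 13 horses its difference from the median of those 8 probes was -0.68 to -0.30. The spot carried no outlier mark.

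IL1R2, the decoy receptor, showed the largest difference among the brightest probes of the 5 genes over the 14 horses. On its probe, A_69_P000011, the control horses ranged from 11.10 to 13.09 with a median of 11.73, and the RAO-affected horses from 11.06 to 16.00 with a median of 13.22. RAO-affected horses 2, 6, 8 and 12 were above every control, horses 10 and 14 lay among the controls, and horse 4 was below every one of them. The group means were 13.11 ± 1.58 in RAO-affected and 11.77 ± 0.69 in control horses (SD, n = 7 each), a 2.53-fold difference. In limma it was 1.34 ± 0.61 (SE), with an unadjusted p of 0.046 and an adjusted p of 0.876. The exact permutation test of this probe gave p = 0.054, and 0.111 within slides.

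The IL1R2 call was a narrow one. With slide as a fixed block the difference was 1.00 ± 0.51, with an unadjusted limma p of 0.076. RAO-affected horses were higher within slides 2, 3 and 4, by 1.83, 1.17 and 0.76, and the difference was -0.088 within slide 1. The 3 horses of slide 1 were the 3 lowest of the 14 for this gene, at 11.06 to 11.20, where the other 11 ranged from 11.31 to 16.00. Leaving out any of control horses 1, 3, 5, 7, 11 and 13 or RAO-affected horses 2, 6, 8 and 12 took the unadjusted p to 0.05 or above, with differences from 0.86 (without horse 8) to 1.39. The spot of horse 8 had a median pixel intensity at 96.9% of the scanner's saturation value and was not marked as saturated.

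IL1R1, the signalling receptor, differed least. The control horses ranged from 7.20 to 9.41 with a median of 7.62, and the RAO-affected horses from 7.16 to 9.34 with a median of 7.50, so that the groups covered the same span. The group means were 7.75 ± 0.72 in RAO-affected and 8.04 ± 0.91 in control horses (SD, n = 7 each). The limma difference was -0.30 ± 0.42 (SE), with an adjusted p of 0.980. It was -0.56 without RAO-affected horse 4 and -0.068 without control horse 5, both of slide 1. The exact permutation test gave p = 0.517. Slide separated the horses where disease did not: those of slide 1 read 9.13 to 9.41 and the other 11 read 7.16 to 8.24. A shift of slide 1 at least as large as this one of 1.78 was seen in 9.19% of tested probes. With slide as a fixed block the IL1R1 difference was -0.062 ± 0.15.

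RAO-affected horse 8 carried much of the upward shift in ligand, antagonist and decoy. Set against the mean of the other 6 RAO-affected horses, its signal was higher by 3.53 for IL1B, 3.37 for IL1R2, 2.65 for IL1A and 2.37 for IL1RN, and its difference was -0.051 for IL1R1. Only 0.145% of all tested probes stood at least as far above the other RAO-affected horses as IL1B did in horse 8, and 0.202%, 0.515% and 0.693% as far as IL1R2, IL1A and IL1RN. The median tested probe of this horse lay 0.28 from the mean of the others, in either direction.

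The balance of ligand to antagonist was then compared, as the difference of the log2 signals of paired genes within a horse. Only its change between groups can be read, since its level depends on the probes. IL1B minus IL1RN was -2.01 ± 0.79 in RAO-affected and -2.12 ± 0.77 in control horses (SD, n = 7 each). RAO-affected horses spanned -3.13 to -1.02 and control horses -3.11 to -0.92, almost the same range. The difference of 0.11 ± 0.42 (SE) was well inside the spread between horses (exact permutation p = 0.794, two-sided), and it was -0.036 with slide as a fixed block. Horse 8, with the highest IL1B signal, also had the highest IL1RN signal, and its balance of -1.02 lay at the upper end of both groups.

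The sign of this ligand to antagonist difference changed with 1 IL1RN probe and with the slide block. Of the 40 combinations of an IL1B with an IL1RN probe, 36 gave a positive and 4 a negative difference, from -0.41 to 0.64. All 4 negative ones used A_69_P004860. With slide as a fixed block, 7 of the 40 were negative, and the differences ranged from -0.68 to 0.46. The balance of IL1A to IL1RN differed by -0.18 ± 0.57 (SE; exact permutation p = 0.758). It rests on IL1A signals that were mostly near background.

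**Figure D3:**
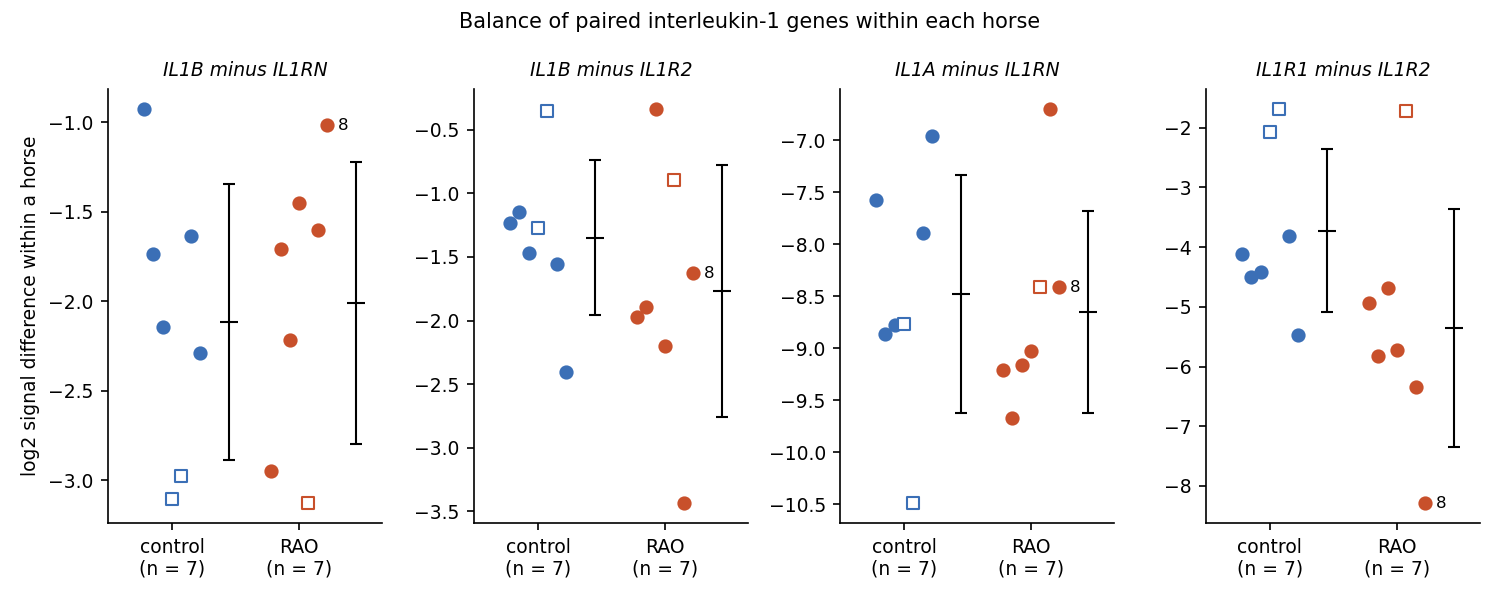
Difference of 2 genes' log2 signals within each horse (vertical axis, a separate range for each pair) in 7 control and 7 RAO-affected horses. Points are horses, open squares the horses of slide 1, 8 marks RAO-affected horse 8, and bars are mean ± SD. The groups cover the same range for IL1B minus IL1RN, and for IL1R1 minus IL1R2 RAO-affected horses 2, 6, 8 and 12 lie below every control.

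The balance of ligand to decoy receptor, IL1B minus IL1R2, was -1.77 ± 0.99 in RAO-affected and -1.35 ± 0.61 in control horses (SD, n = 7 each). The difference of -0.42 ± 0.44 (SE) did not exceed the spread between horses (exact permutation p = 0.369), and all 4 IL1B probes gave a negative value, from -0.44 to -0.28. The balance of signalling to decoy receptor, IL1R1 minus IL1R2, differed most, at -5.36 ± 1.99 in RAO-affected and -3.72 ± 1.37 in control horses (SD, n = 7 each). RAO-affected horses 2, 6, 8 and 12 lay below every control, and horse 4, on slide 1, was near the top of the controls. The difference of -1.64 ± 0.91 (SE) gave an exact permutation p of 0.095, or 0.380 after Benjamini-Hochberg adjustment over the 4 balances. Blocking on slide gave -1.06, with an exact permutation p within slides of 0.080 and an adjusted p of 0.321. Without horse 8 the unblocked difference was -1.15 (exact permutation p = 0.187). Without RAO-affected horse 4 it was -2.24 (exact permutation p = 0.006, no slide block). Slide 1 then held only control horses 3 and 5, at -2.07 and -1.69, so that value mixes slide with group.

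Horse by horse, IL1B and IL1RN went together most closely within slides. Over 14 horses Pearson's r was 0.753 (permutation p = 0.005, 0.012 after adjustment over 4 pairs of genes) and Spearman's rho was 0.565 (permutation p = 0.039, adjusted 0.143). Without horses 8 and 14, the farthest from the IL1B median, r was 0.291 (permutation p = 0.358). Leaving out horse 8 alone gave 0.435 (permutation p = 0.137), and horse 14 alone 0.745 (permutation p = 0.014). The pooled value thus rests mainly on horse 8. On values centred within each slide r was 0.899 and rho 0.943 (exact permutation p within slides = 0.00058 for r, adjusted 0.0023). Without horse 8 the slide-centred r was 0.850 (exact permutation p within slides = 0.0054). Within groups r was 0.837 in the 7 RAO-affected (exact permutation p = 0.037) and 0.441 in the 7 control horses (exact permutation p = 0.332).

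**Figure D4:**
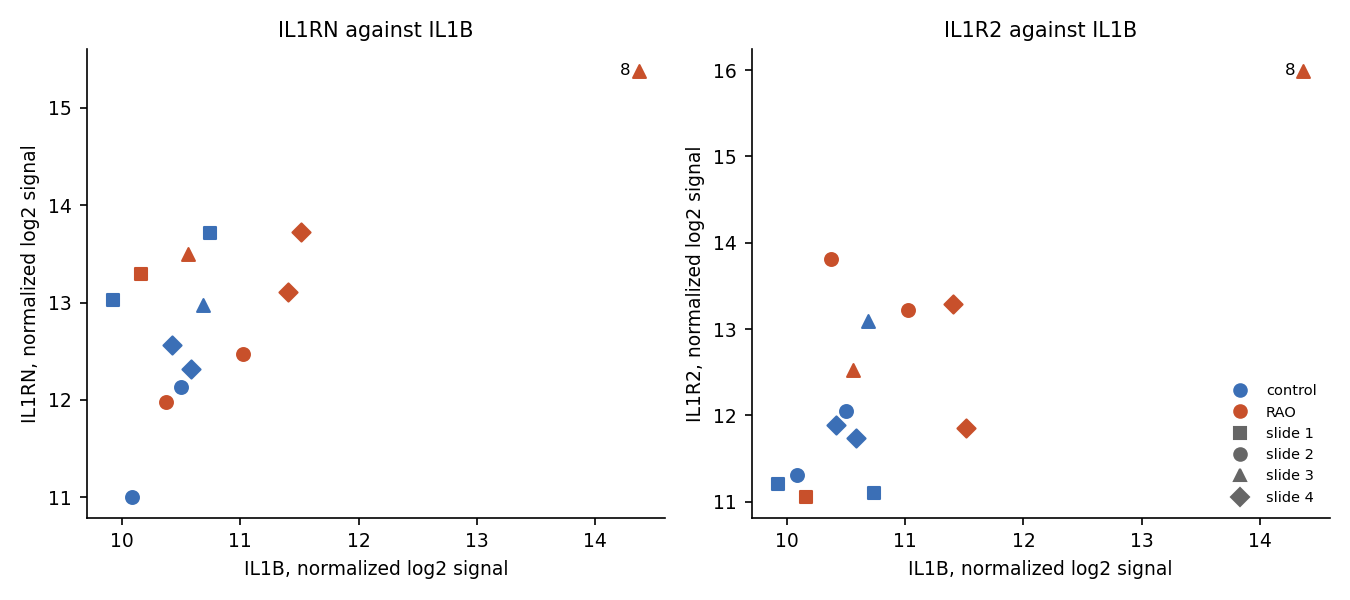
Normalized log2 signal of IL1RN (left panel, vertical axis) and of IL1R2 (right panel, vertical axis) against that of IL1B (horizontal axes), 1 point per horse, coloured by group and shaped by slide, with RAO-affected horse 8 marked. The slide 1 horses (squares) lie above the slide 2 and slide 4 horses of like IL1B signal for IL1RN and at the bottom for IL1R2, and horse 8 lies far from all others in both panels.

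IL1B and IL1R2 had an r of 0.800 over 14 horses (permutation p = 0.006, adjusted 0.012) and a rho of 0.499 (permutation p = 0.072, adjusted 0.143). Without horses 8 and 14 r was 0.589 (permutation p = 0.044) and rho 0.462 (permutation p = 0.136). Without horse 8 alone r was 0.423 (permutation p = 0.149), and on slide-centred values it was 0.793 with that horse and 0.428 without it. Within groups r was 0.789 in RAO-affected (exact permutation p = 0.053, n = 7) and 0.462 in control horses (exact permutation p = 0.296, n = 7). IL1A with IL1RN had an r of 0.538 (permutation p = 0.053, adjusted 0.071), a rho of 0.284 (permutation p = 0.326, adjusted 0.418), and an r of 0.111 without its 2 farthest horses (permutation p = 0.734). Its r was 0.410 on slide-centred values (exact permutation p within slides = 0.359), 0.646 in the RAO-affected and 0.200 in the control horses (exact permutation p = 0.130 and 0.610, n = 7 each). IL1R1 with IL1R2 had an r of -0.416 (permutation p = 0.139, adjusted 0.139) and a rho of -0.235 (permutation p = 0.418, adjusted 0.418). Without its 2 farthest horses r was -0.152 (permutation p = 0.603), within groups it was -0.414 in RAO-affected and -0.453 in control horses (exact permutation p = 0.314 and 0.315, n = 7 each), and on slide-centred values it was 0.122 (exact permutation p within slides = 0.816).

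The rest of the pathway was described through a list of 68 genes, of which 24 had a named probe and 22 were tested. Only 1251 probes could be given a gene name, so most of the list was not analysed here. The difference was positive in 18 of the 22 genes and in 295 of the 537 named genes tested. Its median was 0.37, against -0.028 over all tested probes and 0.022 over those named genes. No upstream member passed an unadjusted p of 0.05 over the 14 horses. IL18, a related cytokine that caspase-1 activates, differed by 0.17 ± 0.16 (SE), and CASP1, the protease that matures IL-1β and IL-18, by 0.055 ± 0.17. The 4 signalling genes TAB2, TAB3, RELA and FOS had a median of 0.065, with TAB3 at -0.44 and FOS at 0.40. Spots were saturated on 5 arrays for FOS, 4 of them from RAO-affected horses, and on 1 for IL18. With slide as a fixed block TAB3 was at -0.62 (unadjusted limma p 0.046), 1 of 22 genes lower in a fit where 5.03% of named genes were.

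Genes known to be induced by interleukin-1 had mostly higher signals in RAO-affected horses. Of 16 tested, 14 had a positive difference, where 295 of 537 named genes did, and the median was 0.78. An unadjusted limma p of 0.05 was passed by 6 (CXCL1, CXCL6, CXCL8, MMP1, SOD2 and TNFAIP6). In that direction 2.86% of all tested probes and 7.08% of named genes passed. The list was chosen with earlier results of these data known, so its share past that threshold is a description only. None passed adjustment over all probes. MMP1, a collagenase, measured 11.28 ± 2.43 in RAO-affected and 8.61 ± 1.71 in control horses (SD, n = 7 each), a difference of 2.68 ± 1.05 (SE). Its spot was saturated in horse 8, without which the difference was 1.87, so the RAO-affected mean is a lower limit. The SOD2 spots of RAO-affected horses 4, 8 and 10 were saturated too. Among the other induced genes, spots were saturated on 12 arrays for PTGES, 3 for CCL2 (all RAO-affected), and 1 each for SELE and VCAM1. Differences of saturated spots may be compressed. TNFAIP6, a secreted hyaluronan-binding protein of inflamed tissue, differed by 2.48 ± 0.82, from 9.20 ± 2.16 against 6.72 ± 0.81. CXCL8, the neutrophil-attracting chemokine interleukin-8, differed by 2.14 ± 0.78, from 11.55 ± 1.85 against 9.41 ± 1.19.

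The lowest differences of the whole list were -0.44 ± 0.39 (SE) for TAB3, an adaptor of the kinase TAK1, -0.39 ± 0.73 for CSF2, the growth factor GM-CSF, and -0.12 ± 0.25 for TNF, another early inflammatory cytokine, which was at 0.036 with slide as a fixed block. None of these 3 passed an unadjusted limma p of 0.05. Horse 8 was the highest of the 14 horses in 8 of the 16 induced genes, among them IL6 at 14.22, where the others ranged up to 11.26, and in 6.40% of all tested probes. Without horse 8, 5 of the 6 still passed, while CXCL1 was at 0.96 (unadjusted limma p 0.088) against 1.21 with all horses. In that fit 5.96% of named genes passed in that direction, and the median of the 16 was 0.58. With slide as a fixed block CXCL6, CXCL8, PTGS2, SOD2 and TNFAIP6 passed, where 8.75% of named genes did. MMP1 at 2.40 (unadjusted limma p 0.061) and CXCL1 at 1.04 (unadjusted limma p 0.065) did not pass in that fit.

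**Figure D5:**
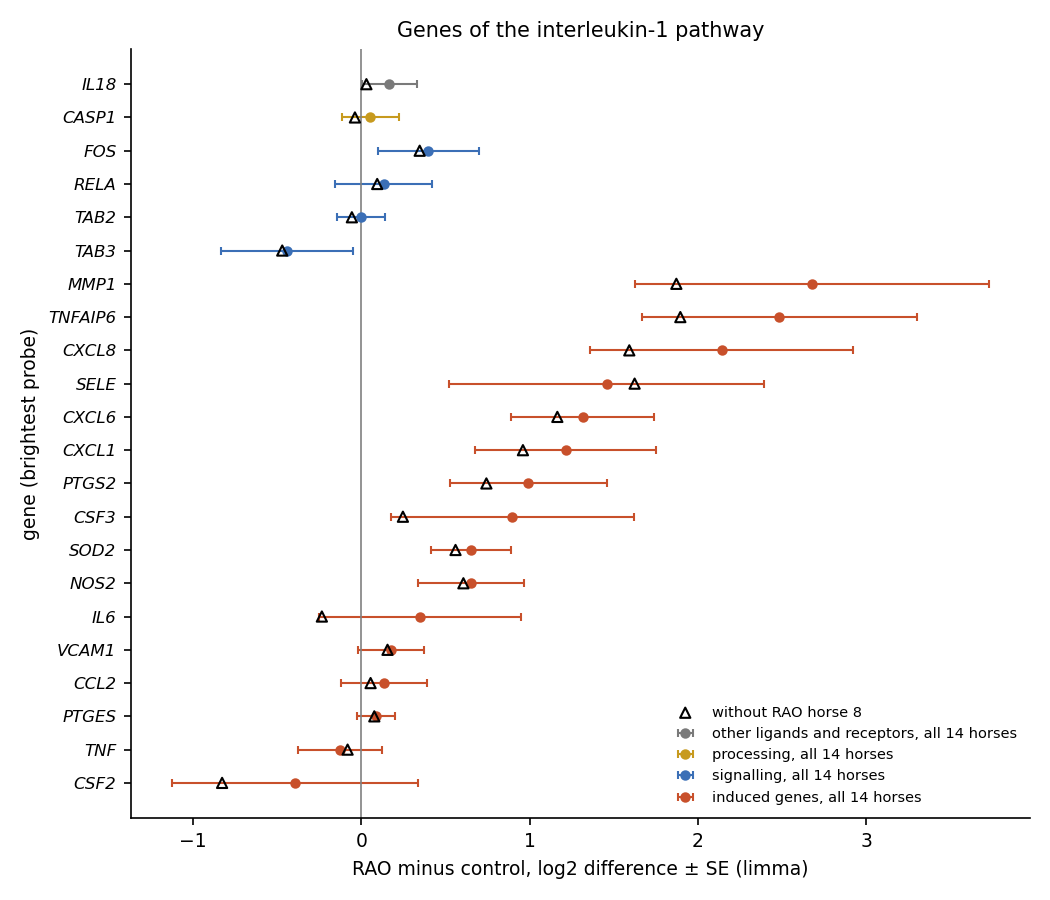
Difference between RAO-affected and control horses in log2 signal (horizontal axis, filled circles, mean ± SE from limma over 14 horses) of 22 genes of the interleukin-1 pathway (vertical axis), coloured by role, with the value without RAO-affected horse 8 as open triangles. The upstream genes lie between -0.44 (TAB3) and 0.40 (FOS), and MMP1, TNFAIP6 and CXCL8 lie farthest to the right, at 2.14 to 2.68.

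Of the markers of cells that make these molecules, MMP9, CD163 and CD14 were higher in RAO-affected horses and CD68 differed little. None passed adjustment in limma. The only neutrophil marker of 13 with a named probe was MMP9, a granule gelatinase that macrophages also make, and it was higher by 1.32 ± 0.44 (SE). Of 9 monocyte and macrophage markers, 3 were tested. CD163, a haemoglobin scavenger receptor, was higher by 2.61 ± 0.47, CD14, the endotoxin co-receptor, by 1.11 ± 0.33, and CD68 by 0.037 ± 0.47. The spot of CD14 was saturated on 1 array, that of CD68 on 2 and that of the stromal marker DCN on 5. The mean log2 signal of CD163, CD14 and CD68 ranged from 12.93 to 14.76 in RAO-affected and from 12.16 to 14.29 in control horses. Horse 8 was second of the 14 at 14.65. The single T cell marker, CD2, differed by -0.43 ± 0.32 (SE), from 13.61 ± 0.74 in RAO-affected and 14.03 ± 0.48 in control horses (SD, n = 7 each). Of the stromal and lymph node markers 4 of 9 were tested. Their mean ranged from 12.66 to 14.85 in RAO-affected and from 11.85 to 13.84 in control horses. SELP and CAV1 were higher by 1.64 and 1.21, and PECAM1 and DCN by 0.45 and 0.19. The lung epithelial marker SFTPA1 differed by 0.54 ± 0.83, and no B cell marker was tested. All 10 tested markers were well above background on every array. The part of cell composition in the interleukin-1 differences was not tested.

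The named genes whose signal followed each interleukin-1 gene most closely over the 14 horses were ranked among 522 genes by Pearson's r, as a description. For IL1B they were CSF3 (r = 0.920), MMP1 (0.885), TNFAIP6 (0.865), CXCL8 (0.832) and FCAR (0.831), and their slide-centred r was 0.773 to 0.927. Without horse 8 the r of CSF3 was 0.654 and that of TNFAIP6 0.817. For IL1RN they were PLA2G4A (0.878), ADAMTS4 (0.815), CD14 (0.799), CSF3 (0.788) and MMP9 (0.787), and all except CSF3 (0.538) stayed at 0.727 or more without horse 8. Of the 5 closest to IL1B, 4 were in the list of induced genes, to which 16 of the 537 named genes tested belonged. The 5 closest to IL1RN held CD14 and MMP9 of the 10 cell markers tested, but not CD163 or CD68.

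For IL1R2 the closest were ATP2A2 (r = 0.804), CXCL8 (0.760), MMP1 (0.750), HTR1B (0.748) and ITGAX (0.736). Without horse 8 they were at 0.453 to 0.796. For IL1A they were IL6 (0.807), PIM1 (0.727), CLDN10 (0.665), PTGES3 (0.663) and CCDC6 (0.663), and without horse 8 they were at 0.350 to 0.620. For IL1R1 they were ADORA2A (0.962), LOC100061246 (0.952), LOC100056349 (0.940), TMEM182 (0.938) and LY49F (0.935). Centring within slides took the IL1R1 values to 0.381 to 0.771, so that the closeness lay largely in the gap between slide 1 and the rest. The horses of these correlations share slides, and the 522 genes are not independent of each other.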

How the data were processed

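RNA of 14 horses was hybridized to 1-colour Agilent arrays. The authors deposited scanner output with an intensity per spot, background-subtracted by Feature Extraction (10.5.1.1 per the file headers, 9.1 per the labels) and not scaled between arrays, and a value table of quantile-normalized signals, each given as a ratio to its probe's median. Control spots and spots marked uneven or outlying were left out, spots of a probe were averaged, and log2 intensities were quantile normalized, as the study's methods state. Those methods name a paired test, but no label gives pairs, so fits were unpaired. The number of arrays limits the precision.

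Probes well above background on 4 arrays or more were tested with limma 3.58.1 in R 4.3.3 (lmFit, eBayes, two-sided, Benjamini-Hochberg over 38674 probes), checked on simulated data. Exact permutation tests relabelled horses over all arrays (3432 labelings) or within slides (324), and correlations used 100000 permutations, or exact ones within groups and slides (Python 3.11.15, scipy 1.17.1, numpy 2.4.6, pandas 2.3.3; figures with matplotlib 3.10.9). The RefSeq gene table of assembly TB-T2T named 1231 probes, and 20 more were named by the accessions of the study's primers. Named here are all interleukin-1 probes, the 3 highest and 3 lowest pathway differences, the 5 genes closest to each interleukin-1 gene, and cell markers. Other pathway genes named singly were chosen after their values were seen. The members and lists were chosen with earlier results of these data known. Alternatives were 75th percentile scaling, normexp (offset 50, on median spot signals), a slide block, array weights, the ratio table, outlier spots kept, other filters, no slide 1, no single horse, means over a gene's probes and the methods' t-test. The fits without horse 8 with the slide block, and without A_69_P004860, were chosen after seeing the data.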

Additional observations from a re-analysis of the deposited data

Results flagged for a closer look

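A horse stood apart from the rest of its group in 7 of 45 sets of 7 horses, with a gap to its neighbour that exceeded Dixon's critical share of the range, where chance gives about 1 in 20. The 4 IL1B probes share their RNA and gave 4 of the 7. RAO-affected horse 8 read 14.23 on A_69_P000091 (others 9.97 to 11.36), 14.37 on A_69_P000092 (others 10.16 to 11.51), 12.87 on A_69_P006391 (others 8.60 to 10.35) and 13.24 on A_69_P006392 (others 9.22 to 10.74). RAO-affected horse 4, of slide 1, read 9.34 for IL1R1, where the other RAO-affected horses read 7.16 to 7.70. Control horse 9 read 6.01 on IL1A probe A_69_P000083, where the other controls read 3.23 to 4.27. RAO-affected horse 6 had an IL1A minus IL1RN balance of -6.70, where its group otherwise had -9.67 to -8.41.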

How the results depend on the processing

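No interleukin-1 probe, and no other probe, passed Benjamini-Hochberg adjustment in any limma fit or the methods' t-test. No paired analysis was run because no label gives the pairs. The replicate numbers, odd for control and even for RAO-affected horses, do not say which horses were paired. IL1A, IL1B and IL1R1, read by their brightest probe or probe mean, kept their sign in all 24 alternatives each. They also kept their side of an unadjusted p of 0.05 there. With 1 horse left out, IL1B probe A_69_P006392 fell below an unadjusted limma p of 0.05 in 3 of 14 fits. A_69_P000091 did so in 1 and A_69_P006391 in 0. With slide as a fixed block IL1RN passed (0.77) and IL1R2 did not (1.00), IL1B minus IL1RN turned to -0.036, and IL1R1 with IL1R2 to an r of 0.12. With that block and without horse 8 the values were 0.58 for IL1RN (passed), 0.71 for IL1R2 (did not), -0.21 for IL1B minus IL1RN, and r of 0.43 for IL1B with IL1R2 (did not) and 0.075 for IL1R1 with IL1R2. Normexp gave 1.23 for IL1R2 (did not pass), an r of 0.69 for IL1A with IL1RN (passed) and 262 probes past 2-fold in place of 569, 230 higher and 32 lower against 425 and 144. The methods' t-test gave 1.34 for IL1R2 (did not pass). Without slide 1, IL1B minus IL1RN was -0.078, IL1R1 minus IL1R2 -1.50 (passed), the r of IL1A with IL1RN 0.65 (passed), that of IL1R1 with IL1R2 0.29, and 1111 probes passed 2-fold. Array weights gave -0.031 for IL1B minus IL1RN and -1.42 for IL1R1 minus IL1R2 (passed). Scaling to the 75th percentile gave 0.014 for IL1A minus IL1RN. Means over a gene's probes gave an r of 0.73 for IL1A with IL1RN (passed), and leaving out A_69_P004860 0.72 (passed), with an IL1A minus IL1RN balance of 0.031. Requiring all 14 arrays left 291 probes past 2-fold. The causes were not tested.

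With 1 horse left out at a time the differences were 0.48 to 1.05 for IL1RN, 0.86 to 1.68 for IL1R2, 0.26 to 0.96 for IL1A, 0.42 to 1.12 for IL1B, -0.56 to -0.068 for IL1R1, -0.66 (without RAO-affected horse 14) to -0.14 (without RAO-affected horse 6) for IL1B minus IL1R2, -0.059 to 0.30 for IL1B minus IL1RN, -0.52 to 0.073 for IL1A minus IL1RN and -2.24 to -1.15 for IL1R1 minus IL1R2. The r ranged from 0.44 to 0.79 for IL1B with IL1RN, 0.42 to 0.88 for IL1B with IL1R2 and 0.14 to 0.65 for IL1A with IL1RN, and the probes past 2-fold from 386 to 1117 (without RAO-affected horse 4). IL1A signals near background limit what can be said of that gene.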
